A study of Mus musculus with 47 samples.

Results

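Hepcidin and the genes that sense, carry, store and export iron were followed across mouse liver libraries as a set of 10 genes, Hamp, Hamp2, Bmp6, Id1, Smad7, Tfr2, Tfrc, Trf, Fth1 and Slc40a1. The genes were taken by their symbols from a deposited table of 20320 genes. All 10 were found, and all 10 were among the 16650 genes with enough reads to be tested. The series asked how genotype and diet combine in mouse models of type 2 diabetes. Its 47 liver libraries came from wild-type male and female mice of C57BL/6J (the common laboratory strain), CAST/EiJ (a strain derived from wild mice) and NZO/HlLtJ (New Zealand Obese mice). From week 6 the mice ate either a control chow of 10% fat plus fiber or one of 44% fat plus fiber, rich in fat and sugar, no other treatment is labelled, and tissue was taken in week 15. Each of the 12 groups of strain, sex and diet had 4 libraries, except CAST/EiJ males on 10% fat, which had 3. The labels do not say that libraries came from separate animals, so the p-values rest on the spread between libraries only.

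Iron in the body has no regulated route of loss, so its level is set by entry. Hepcidin, a small peptide hormone made by hepatocytes, binds the iron exporter ferroportin on gut, macrophage and liver cells and sends it for degradation. The liver makes more hepcidin when iron is plentiful. Sinusoidal endothelial cells then release BMP6, the receptors on hepatocytes activate SMAD proteins, and these act on the hepcidin promoter as well as on other targets such as Id1 and Smad7. Inflammation raises hepcidin through IL-6 and STAT3. Mice carry a second hepcidin gene, Hamp2, beside Hamp, whose product is not known to share the iron-regulating action of the first.

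Hamp (ENSMUSG00000050440, chr7:30942368-30944032, minus strand, GRCm38) and Hamp2 (ENSMUSG00000056978, chr7:30922389-30924681, minus strand) lie near each other on the chromosome, and the bases before their RefSeq starts are close copies. In the RefSeq promoter table, built on GRCm38.p6, 227 of 247 aligned bases before the start sites were identical, or 91.9%. A stretch of 61 bases is shown for each because it holds the letters of both kinds of input to hepcidin, and because the genes differ at one of them. The Hamp stretch is chr7:30944098-30944158, from base -129 to base -69 counted from the RefSeq start, and the Hamp2 stretch is chr7:30924247-30924307, from base -126 to base -66. The Hamp2 stretch lies inside the deposited gene coordinates given above, because the deposited gene extends further 5′ than the RefSeq start. The Hamp stretch lies outside its gene coordinates. Both are printed 5′ to 3′ on the minus strand. Capitals mark GGCGCC, the core letters of a BMP-responsive element, and TTCNNNGAA, the letters of a STAT element, and in Hamp2 the bases that align with them.
Hamp: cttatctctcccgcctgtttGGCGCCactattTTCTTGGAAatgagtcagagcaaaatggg
Hamp2: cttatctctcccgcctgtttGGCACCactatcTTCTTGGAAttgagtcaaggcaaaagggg
Counted from 1 at the 5′ end of the stretch, with the Hamp base first, the differences were G24A, T32C, A42T, G50A, A51G and T58G. G24A falls inside GGCGCC, so that the 250 bases before the RefSeq start of Hamp2 hold no GGCGCC on either strand, while TTCNNNGAA is present in both genes. Each motif is its own reverse complement and no match overlapped a match to the other. Of 32851 promoters in the table, 9.59% held GGCGCC and 7.02% held TTCNNNGAA in the same 250 bases, so a match by itself is common. Among the other members, GGCGCC was found before 1 of the starts of Tfrc. In all, 6 of the 10 genes were matched in the table, and Id1, Smad7, Slc40a1 and Trf were not. These are sequences of the reference strain and do not show the alleles of CAST/EiJ or NZO/HlLtJ.

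The near identity extends to the transcripts, which bears on how reads are assigned. The main GENCODE M21 transcripts of Hamp (410 bases) and Hamp2 (420 bases) matched at 388 of 410 aligned bases, or 94.6%. Their longest shared run was 87 bases, and none of the 311 windows of 100 bases in the Hamp transcript, the read length, recurred in that of Hamp2. Reads can be told apart on the reference, but an allele that differs from it could move reads between the 2 genes, so their sum is given as well.

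The largest strain differences within the set were those of the hepcidin genes. Hamp was lower in CAST/EiJ than in either other strain, with at most 46 counts in a library on 44% fat, and Hamp2 was at or near 0 counts there on both diets. NZO/HlLtJ livers held more Hamp2 than C57BL/6J livers but not detectably more or less Hamp. Levels are given as CPM, a gene's count relative to the scaled library total, and each test is edgeR's quasi-likelihood test with p-values adjusted over all 16650 genes, with a gene called at an adjusted p under 0.05. Of the 10 genes, 2 were higher and 6 lower in CAST/EiJ than in C57BL/6J, where 32.6% of all tested genes were higher and 35.3% lower. In NZO/HlLtJ against C57BL/6J, 3 were higher and 4 lower, against 25.5% and 23.6% of all genes. In NZO/HlLtJ against CAST/EiJ, 5 were higher and 2 lower, against 35.3% and 32.8%. These backgrounds are high, and 7 or 8 of 10 genes called should be read against them.

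In C57BL/6J females Hamp stood at 407, 174, 99.2 and 287 CPM on 10% fat and at 166, 172, 303 and 141 CPM on 44% fat. In C57BL/6J males it stood at 298, 97.0, 193 and 188 CPM on 10% fat and at 126, 74.9, 106 and 85.1 CPM on 44% fat. All 16 libraries therefore carried Hamp between 74.9 and 407 CPM. In NZO/HlLtJ females Hamp was at 371, 580, 181 and 136 CPM on 10% fat and at 146, 47.99, 162 and 41.2 CPM on 44% fat. In NZO/HlLtJ males it was at 189, 218, 107 and 345 CPM on 10% fat and at 17.4, 91.5, 50.7 and 49.9 CPM on 44% fat. The NZO/HlLtJ libraries overlapped the C57BL/6J libraries on both diets, and the lowest values of the strain were on 44% fat in both sexes.

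In CAST/EiJ females Hamp was at 35.1, 0.195, 0.0293 and 18.6 CPM on 10% fat and at 0, 0.0292, 0 and 0.0994 CPM on 44% fat. In CAST/EiJ males it was at 18.8, 0 and 6.91 CPM on 10% fat and at 0, 0, 0 and 1.12 CPM on 44% fat. Every CAST/EiJ library was below every C57BL/6J library, and 6 of the 15 had no Hamp read at all. The 4 CAST/EiJ libraries with 6.91 CPM or more were all on 10% fat, and 3 of the 7 on that diet were as low as the libraries on 44% fat. The strain mean was 5.40 ± 10.5 CPM in CAST/EiJ (SD, n = 15), against 182 ± 95 in C57BL/6J (n = 16) and 171 ± 150 in NZO/HlLtJ (n = 16). Hamp was lower in CAST/EiJ than in C57BL/6J by a log2 fold change of -7.35 (SE 0.68, adjusted p = 8.13e-12) and higher in NZO/HlLtJ than in CAST/EiJ by 7.02 (SE 0.68, adjusted p = 2.11e-11). Both sizes depend on a single CAST/EiJ library, male on 44% fat replicate 4, without which they were -8.99 and 8.66. Within the 3 runs of library identifiers described with the diet results, the difference from C57BL/6J was -9.60, -13.15 and -6.66 (adjusted p = 0.004727, 6.644e-08 and 0.01587). Between NZO/HlLtJ and C57BL/6J the log2 difference of -0.33 was smaller than its standard error of 0.43 (adjusted p = 0.544). In bulk tissue, fewer cells of a type and less transcript per cell cannot be told apart.

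The order of group means placed NZO/HlLtJ females, then C57BL/6J females and NZO/HlLtJ males on 10% fat at the top for Hamp, and neighbouring groups within the 2 strains overlapped, down to NZO/HlLtJ males on 44% fat. The 4 CAST/EiJ groups came last. The gene on the 5′ side of Hamp, Usf2, which encodes a transcription factor and lies at chr7:30945248-30956803, was measured at 53.5 ± 5.15, 43.5 ± 4.42 and 37.3 ± 3.91 CPM in C57BL/6J, NZO/HlLtJ and CAST/EiJ (SD, n = 16, 16 and 15). Whether strain alleles affect how hepcidin reads align or are counted was not tested.

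**Figure D1:**
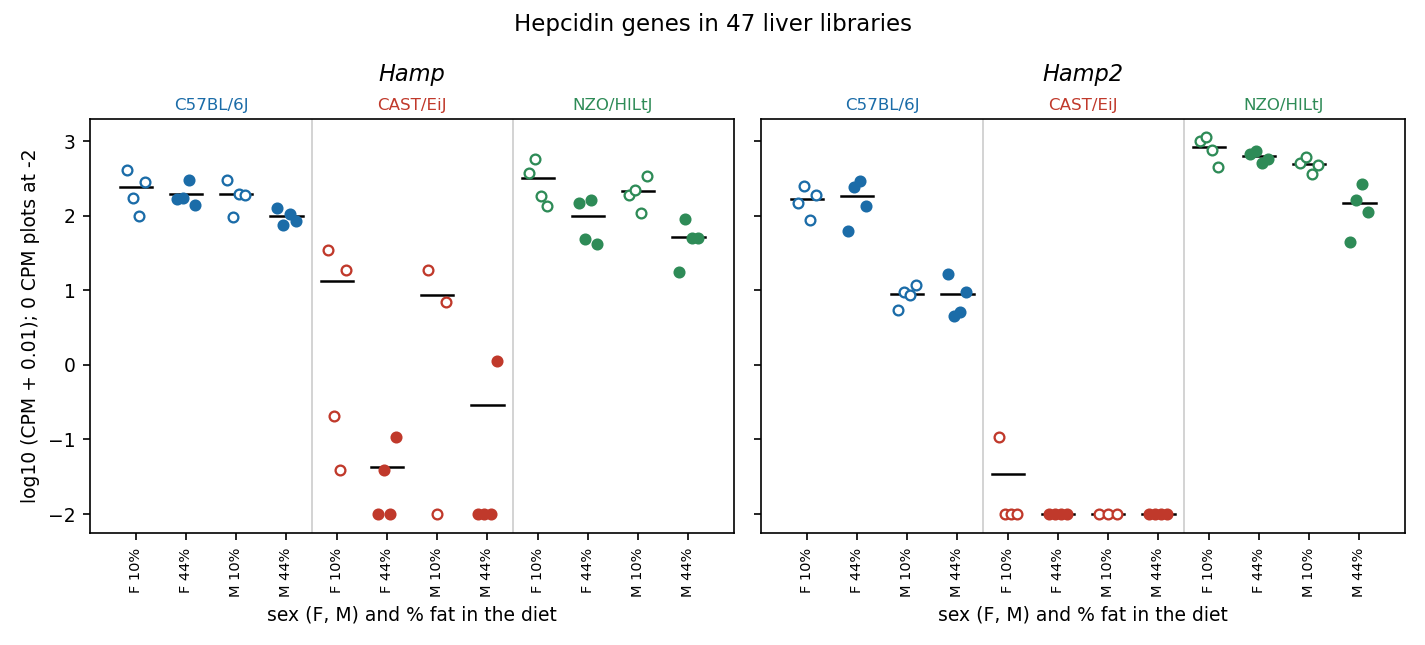
Hamp and Hamp2 in each of the 47 libraries, as log10(CPM + 0.01) by strain, sex and diet, with open circles for 10% fat, filled circles for 44% fat and a bar at each group mean. Libraries with no read sit at -2. CAST/EiJ lies below C57BL/6J for both genes and below NZO/HlLtJ for Hamp2, its highest Hamp libraries (35.1, 18.8 and 18.6 CPM) exceed the lowest of NZO/HlLtJ (17.4 CPM), and C57BL/6J males lie below C57BL/6J females for Hamp2, at 4.47 to 16.6 against 63.0 to 289 CPM.

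Hamp2 separated the sexes of C57BL/6J. In C57BL/6J females it was at 146, 247, 86.8 and 187 CPM on 10% fat and at 63.0, 244, 289 and 135 CPM on 44% fat. In C57BL/6J males it was at 5.47, 9.39, 8.51 and 11.7 CPM on 10% fat and at 16.6, 4.47, 5.07 and 9.42 CPM on 44% fat. The sexes of C57BL/6J did not overlap on either diet. NZO/HlLtJ females had 995, 1123, 754 and 446 CPM on 10% fat and 677, 745, 507 and 582 CPM on 44% fat. NZO/HlLtJ males had 512, 618, 365 and 482 CPM on 10% fat and 44.7, 162, 270 and 111 CPM on 44% fat. In CAST/EiJ, 14 of 15 libraries had no Hamp2 read, and 1 female on 10% fat had 3 reads, or 0.0966 CPM.

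Averaged over sexes and diets, Hamp2 was 11.2-fold higher in NZO/HlLtJ than in C57BL/6J (log2 3.49, SE 0.25, adjusted p = 1.495e-12). Hamp2 was lower in CAST/EiJ than in C57BL/6J (adjusted p = 1.165e-17), and the size can only be bounded. Against a floor of 3 counts over the group, CAST/EiJ females on 44% fat were at least 9060-fold lower than C57BL/6J females on that diet, and males at least 312-fold lower on 10% fat and at least 457-fold lower on 44% fat. The same bounds against NZO/HlLtJ were 31100-fold for females on 44% fat, 17600-fold for males on 10% fat and 7550-fold for males on 44% fat. For females on 10% fat, with the 3 reads, the ratio of C57BL/6J to CAST/EiJ was 7740, with a 95% interval of 2650 to 37500 that covers counting error only.

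By sex, Hamp2 was 19.7-fold higher in C57BL/6J females than in males (log2 4.303, SE 0.37, adjusted p = 5.794e-10). The group means were 174.5 ± 80.9 and 8.83 ± 4.04 CPM (SD, n = 8 each). In NZO/HlLtJ, Hamp2 was higher in females by a log2 fold change of 1.42 (SE 0.33, adjusted p = 0.002608), at 728.7 ± 233 against 320.6 ± 207 CPM (n = 8 each). The size of the sex effect differed among the strains (joint test, adjusted p = 0.0002575). The sum of Hamp and Hamp2 did not pass for sex in C57BL/6J (log2 1.41, SE 0.60, adjusted p = 0.1026) or NZO/HlLtJ (log2 1.28, SE 0.59, adjusted p = 0.1396). With each strain fitted alone it passed in both (adjusted p = 0.003323 and 0.008619). The joint test of the sum did not pass (adjusted p = 0.4268). Hamp itself did not pass the test for sex in any strain, with log2 differences of 0.65 in C57BL/6J (adjusted p = 0.523), -1.19 in CAST/EiJ (adjusted p = 0.617) and 0.74 in NZO/HlLtJ (adjusted p = 0.447).

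The balance of the 2 genes, compared per base of transcript, followed the same lines. In C57BL/6J females Hamp2 made up a median of 42.1% of the pair on 10% fat (range 25.6 to 57.6%) and 47.8% on 44% fat (26.7 to 57.7%). In C57BL/6J males the medians were 4.85% and 7.51%, with no library above 11.2%. In NZO/HlLtJ, Hamp2 was the larger part in all 16 libraries, with medians of 74.0% and 87.4% in females and 72.7% and 69.7% in males on 10% and 44% fat. Summed, the pair was at 274 ± 168 CPM in C57BL/6J (SD, n = 16), 5.41 ± 10.5 in CAST/EiJ (n = 15) and 695.5 ± 422 in NZO/HlLtJ (n = 16). The sum was higher in NZO/HlLtJ than in C57BL/6J (log2 1.28, SE 0.42, adjusted p = 0.0109), the opposite sign to Hamp alone. That call was lost with DESeq2 (adjusted p = 0.0641) and in the first run of library identifiers alone (adjusted p = 0.0945).

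Diet changed few of the genes. In C57BL/6J 0 of the 10 passed the test, against 0.823% of all genes higher and 0.168% lower on 44% fat. At an unadjusted p under 0.05 there were 2, and DESeq2 also called 0. In CAST/EiJ 0 were higher and 1, Hamp, was lower, against 0.498% and 0.396% of all genes. In NZO/HlLtJ 1 was higher, Fth1, and 3 were lower, Slc40a1, Trf and Hamp2, against 3.5% and 2.14%. The median log2 change of the 10 genes was -0.098, -0.10 and -0.296 in the 3 strains, and that of all genes was 0.0134, 0 and 0. A joint test that the diet effect differed among strains called 0 of the 10, with 2 at an unadjusted p under 0.05, against 0.048% of all genes, and DESeq2 called 1.

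Hamp fell on 44% fat in CAST/EiJ, from 11.4 ± 13.4 CPM (SD, n = 7) to 0.157 ± 0.392 CPM (n = 8). The log2 fold change was -6.68 (SE 1.09, adjusted p = 0.0007932), and the values of the diets overlapped. The call held without each of the 15 libraries in turn (adjusted p between 0.0001514 and 0.009474). The fold moved to -6.05 without the male on 10% fat replicate 1, to -7.47 without the female on 44% fat replicate 4 and to -9.96 without the male on 44% fat replicate 4. The call was lost when CAST/EiJ was fitted alone (adjusted p = 0.124) and within each of 3 runs of consecutive library identifiers, where the log2 values were -12.95, -1.78 and -4.56 (adjusted p = 0.454, 1 and 0.868).

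The runs are what the library titles show, with 16, 16 and 15 libraries and all 3 strains in each, and nothing states whether they were processing batches. All 6 CAST/EiJ libraries of the second run were at or below 0.195 CPM Hamp on both diets, while the first run had 13.5 ± 16.9 CPM (n = 4) and the third 5.36 ± 7.95 (n = 5).

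In NZO/HlLtJ, Hamp was at 266 ± 157 CPM on 10% fat and 75.9 ± 52.5 on 44% fat (SD, n = 8 each), with no overlap in males and overlap in females. The log2 difference of -1.85 (SE 0.62) did not pass over all genes (adjusted p = 0.0741), but did with the strain fitted alone (adjusted p = 0.0288, in a range of 0.0288 to 0.353 over the alternatives). Hamp2 fell from 662 ± 274 to 387 ± 273 CPM (log2 -1.08, SE 0.33, adjusted p = 0.04732). In males Hamp2 on 44% fat lay below every library on 10% fat, and in females the diets overlapped. This call was lost without any 1 of 14 of the 16 NZO/HlLtJ libraries (adjusted p up to 0.0985) and of these refits remained only without the female on 10% fat replicate 4 or the male on 44% fat replicate 3. It was also lost with the run of library identifiers as a covariate (adjusted p = 0.0548), with no filter on low counts (adjusted p = 0.0607) and in the first run alone (adjusted p = 0.274). The sum of Hamp and Hamp2 in NZO/HlLtJ did not pass by diet (log2 -1.24, SE 0.59, adjusted p = 0.2421), but did with the strain fitted alone (adjusted p = 0.02591). In C57BL/6J, Hamp was at 218 ± 106 CPM on 10% fat and 147 ± 72.1 on 44% fat (n = 8 each), a log2 difference of -0.65 that did not pass the test. Within the second run it had the opposite sign, at 0.21.

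The diet effect on Hamp was not shown to differ among strains, with a joint adjusted p of 0.0997 for Hamp, 0.497 for Hamp2 and 0.0530 for their sum. For Hamp this p ranged from 0.0334, without the CAST/EiJ female on 10% fat replicate 2, to 0.250 over the libraries left out in turn, and was 0.00565 with DESeq2. Of the 47 refits of the sum without 1 library, 11 fell below 0.05.

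The regulators upstream came next. Bmp6 (ENSMUSG00000039004, chr13:38345716-38499728, plus strand) encodes the ligand that reports liver iron to hepatocytes, and it was highest in C57BL/6J. Its level was 2.63 ± 0.748 CPM in C57BL/6J (SD, n = 16, range 1.39 to 3.95), 1.53 ± 0.687 in CAST/EiJ (n = 15, 0.788 to 2.88) and 1.57 ± 0.255 in NZO/HlLtJ (n = 16, 1.09 to 1.93). The ranges overlapped, and the differences from C57BL/6J passed the test, at log2 -0.80 in CAST/EiJ (SE 0.14, adjusted p = 5.486e-06) and -0.74 in NZO/HlLtJ (SE 0.14, adjusted p = 2.179e-05). CAST/EiJ and NZO/HlLtJ did not differ beyond their spread. NZO/HlLtJ had Bmp6 levels near those of CAST/EiJ and Hamp levels that overlapped those of C57BL/6J.

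By diet, Bmp6 did not pass in any strain, at log2 -0.42 in C57BL/6J (adjusted p = 0.347), -0.69 in CAST/EiJ (adjusted p = 0.105) and -0.28 in NZO/HlLtJ (adjusted p = 0.496). CAST/EiJ females had 2.32, 1.45, 2.08 and 1.56 CPM on 10% fat and 0.849, 0.788, 0.975 and 1.04 CPM on 44% fat, without overlap. CAST/EiJ males had 2.88, 0.827 and 2.16 CPM on 10% fat and 1.86, 1.09, 0.809 and 2.30 on 44% fat, with overlap. Without the male on 10% fat replicate 2, the CAST/EiJ diet difference passed (adjusted p = 0.0348), and over all libraries left out in turn its adjusted p ran up to 0.435.

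Markers of the cells that make BMP6 were also read between strains. Of 10 sinusoidal endothelial markers, 3 were higher and 7 lower in CAST/EiJ than in C57BL/6J (all genes 32.6% and 35.3%). In NZO/HlLtJ 2 were higher and 1 lower (all genes 25.5% and 23.6%). Their summed level ran from 252 to 412 CPM over the CAST/EiJ libraries, 279.8 to 486.6 in C57BL/6J and 301.5 to 463 in NZO/HlLtJ, and no marker was at 0. By diet 0 of the 10 were called in any strain, with 0 in C57BL/6J, 3 in CAST/EiJ and 2 in NZO/HlLtJ at an unadjusted p under 0.05. Of all genes 3.5% were called higher and 2.14% lower by diet in NZO/HlLtJ, and smaller shares in the other strains. Their part in the Bmp6 differences was not tested.

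Id1 (ENSMUSG00000042745, chr2:152736251-152737410, plus strand), an inhibitor of basic helix-loop-helix factors that BMP signalling switches on, was lower outside C57BL/6J. In C57BL/6J females it was at 11.01, 13.28, 4.16 and 6.03 CPM on 10% fat and at 30.8, 3.002, 5.34 and 5.65 on 44% fat. In C57BL/6J males it was at 15.2, 4.41, 2.51 and 1.93 CPM on 10% fat and at 11.9, 3.06, 2.04 and 2.24 on 44% fat. A few libraries stood far above the rest of their groups. CAST/EiJ libraries lay between 0.896 and 3.02 CPM (mean 1.89 ± 0.595, n = 15) and NZO/HlLtJ libraries between 0.984 and 4.89 CPM (2.68 ± 1.36, n = 16), against a mean of 7.66 ± 7.53 in C57BL/6J (n = 16).

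The Id1 difference from C57BL/6J was -1.95 on the log2 scale in CAST/EiJ (SE 0.33, adjusted p = 2.122e-06) and -1.49 in NZO/HlLtJ (SE 0.31, adjusted p = 0.0001149). Its size moved with the run of identifiers. C57BL/6J libraries of the first run had 17.2 ± 9.23 CPM (SD, n = 4), those of the second 5.54 ± 3.89 (n = 6) and those of the third 3.40 ± 1.90 (n = 6). Within the first run alone the CAST/EiJ difference was -2.95 and the NZO/HlLtJ difference -2.86, while within the third the CAST/EiJ difference was -0.86 (adjusted p = 0.0138).

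Smad7 (ENSMUSG00000025880, chr18:75367529-75395935, plus strand) encodes the inhibitory SMAD that shuts the BMP signal off again. It stood at 9.05 ± 3.80 CPM in C57BL/6J (SD, n = 16), 7.09 ± 2.04 in CAST/EiJ (n = 15) and 6.84 ± 2.73 in NZO/HlLtJ (n = 16). The ranges were 5.41 to 17.0, 4.54 to 13.4 and 3.76 to 15 CPM and overlapped for the most part. Only the difference of NZO/HlLtJ from C57BL/6J passed (log2 -0.40, SE 0.16, adjusted p = 0.03779), and it was lost without any 1 of 13 of the 32 libraries (adjusted p up to 0.0972). Those were 1 library of each C57BL/6J group, females on 10% fat replicate 2 and replicate 1 of each other group, and 9 of NZO/HlLtJ, females on 10% fat replicates 1 and 4 and on 44% fat replicates 2 and 3, and males on 10% fat replicates 1, 2 and 3 and on 44% fat replicates 1 and 2. In the first run alone the difference was -1.11 (adjusted p = 0.0005059). By diet and by sex Smad7, Id1 and Bmp6 were not called in any strain.

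Tfr2 (ENSMUSG00000029716, chr5:137569840-137587481, plus strand), the hepatocyte receptor that senses iron-loaded transferrin, varied little between strains. It was at 351 ± 36.6 CPM in C57BL/6J (SD, n = 16), 322 ± 37.6 in CAST/EiJ (n = 15) and 379 ± 28.9 in NZO/HlLtJ (n = 16), with all libraries between 248.1 and 430.8 CPM. The 2 differences from CAST/EiJ passed, at log2 -0.14 for CAST/EiJ minus C57BL/6J (SE 0.049, adjusted p = 0.01243) and 0.25 for NZO/HlLtJ minus CAST/EiJ (adjusted p = 2.374e-05). The first did not pass in any run alone (adjusted p = 0.497, 0.0961 and 0.100).

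**Figure D2:**
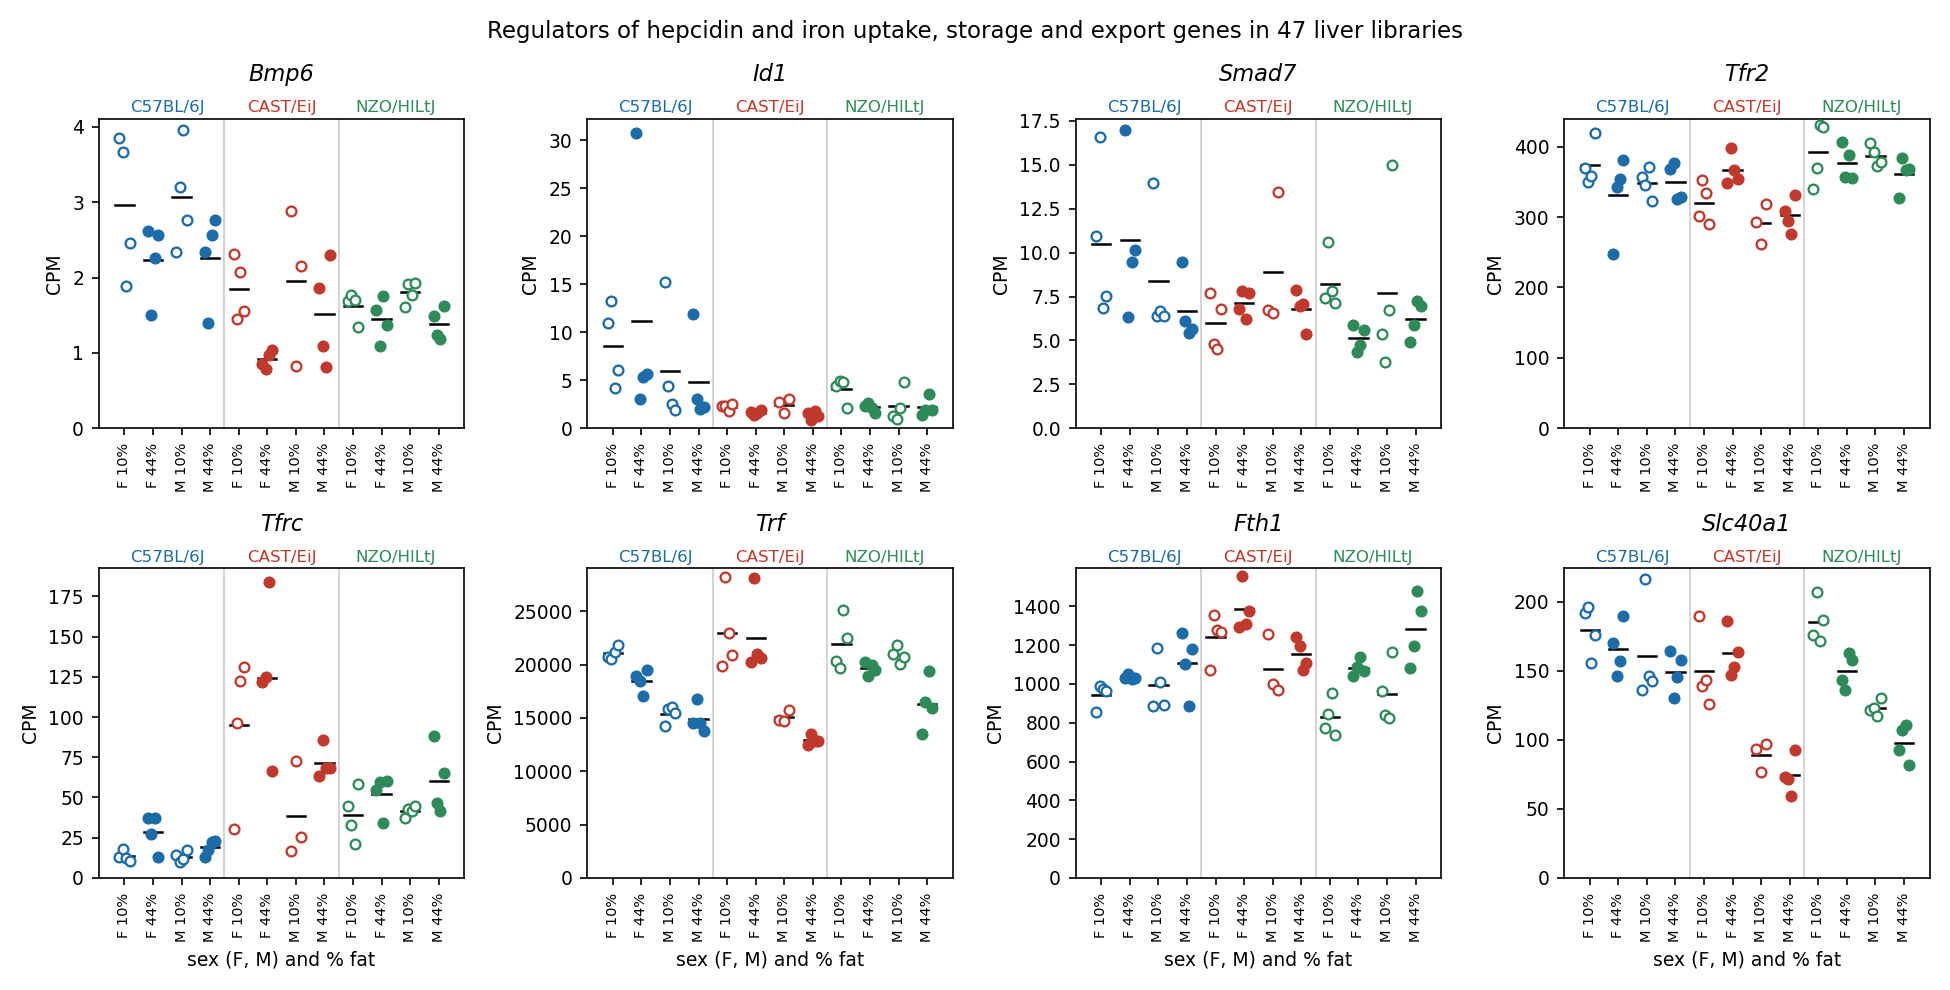
Bmp6, Id1, Smad7, Tfr2, Tfrc, Trf, Fth1 and Slc40a1 in each of the 47 libraries in CPM on linear axes from 0, by strain, sex and diet, with open circles for 10% fat, filled circles for 44% fat and a bar at each group mean. Tfrc is highest in CAST/EiJ females, Slc40a1 is lowest in CAST/EiJ males, and Tfr2 stays between 248.1 and 430.8 CPM throughout.

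Iron uptake was represented by transferrin and its receptor. Tfrc (ENSMUSG00000022797, chr16:32608920-32632794, plus strand) encodes transferrin receptor 1, whose transcript is stabilised by iron regulatory proteins when a cell is short of iron. It was highest in CAST/EiJ, the strain with the lowest Hamp. C57BL/6J females had 12.7, 17.9, 12.1 and 10.7 CPM on 10% fat and 37.4, 27.5, 37 and 12.99 on 44% fat. C57BL/6J males had 14.1, 9.75, 11.9 and 17.1 CPM on 10% fat and 13.1, 17.4, 22.2 and 22.9 on 44% fat. No C57BL/6J library exceeded 37.4 CPM.

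In CAST/EiJ females Tfrc was at 30.3, 96.0, 123 and 131 CPM on 10% fat and at 122, 125, 184 and 66.3 on 44% fat. In CAST/EiJ males it was at 16.6, 72.5 and 25.3 CPM on 10% fat and at 63.3, 85.9, 68.2 and 68.4 on 44% fat. The 3 CAST/EiJ libraries with the lowest Tfrc, at 16.6, 25.3 and 30.3 CPM, were 3 of the 4 libraries of that strain with the highest Hamp. The other of those 4, the female on 10% fat replicate 4, had 131 CPM Tfrc, the highest of the strain on that diet. NZO/HlLtJ females had 44.4, 32.6, 20.8 and 58.4 CPM on 10% fat and 54.3, 59.3, 34.1 and 60.5 on 44% fat. NZO/HlLtJ males had 37.2, 43.1, 41.4 and 44.8 CPM on 10% fat and 88.4, 46.8, 41.3 and 65.4 on 44% fat. The libraries of this strain overlapped both other strains.

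The strain means of Tfrc were 18.6 ± 8.77 CPM in C57BL/6J (SD, n = 16), 48.3 ± 15.9 in NZO/HlLtJ (n = 16) and 85.2 ± 45.6 in CAST/EiJ (n = 15). All 3 pairs differed, by log2 2.10 for CAST/EiJ minus C57BL/6J (SE 0.20, adjusted p = 1.948e-11), 1.43 for NZO/HlLtJ minus C57BL/6J (SE 0.20, adjusted p = 1.47e-07) and -0.66 for NZO/HlLtJ minus CAST/EiJ (SE 0.20, adjusted p = 0.003282). In the first run alone the first was 1.37 and the last had the opposite sign, at 0.15 (adjusted p = 0.556). Females of CAST/EiJ had more Tfrc than males (log2 1.06, SE 0.29, adjusted p = 0.004681). On 44% fat Tfrc was at 23.8 against 13.3 CPM in C57BL/6J, 97.9 against 70.6 in CAST/EiJ and 56.3 against 40.3 in NZO/HlLtJ, higher on average in each, and none passed (log2 0.81, 0.65 and 0.47, adjusted p = 0.174, 0.340 and 0.353).

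Trf (ENSMUSG00000032554, chr9:103204001-103230444, minus strand) encodes transferrin, the iron carrier of plasma that hepatocytes secrete, and separated the sexes in 2 strains. C57BL/6J females ranged from 17010 to 21790 CPM and males from 13750 to 16790, without overlap (log2 0.38, SE 0.073, adjusted p = 0.0001624). CAST/EiJ females ranged from 19880 to 28250 CPM and males from 12440 to 15710, again without overlap (log2 0.71, SE 0.077, adjusted p = 1.152e-09). NZO/HlLtJ females ranged from 18890 to 25150 and males from 13480 to 21870 CPM and the sexes overlapped. The sex effect differed among strains (joint adjusted p = 0.001031). Beside it in CAST/EiJ, the summed level of 8 hepatocyte markers ran from 83850 to 121100 CPM in females and from 49550 to 75410 in males. Of the 8, 3 were called higher in females and 0 lower (all genes 14.2% and 16.1%). In C57BL/6J 2 were called higher and 1 lower (all genes 8.71% and 8.1%), and in NZO/HlLtJ 2 higher and 2 lower (all genes 9.32% and 7.95%). The part of these markers was not tested.

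Between strains Trf was higher in NZO/HlLtJ than in C57BL/6J (log2 0.18, SE 0.052, adjusted p = 0.003461) and than in CAST/EiJ (log2 0.14, adjusted p = 0.02054). In the first run alone Trf lost both calls (log2 0.1572 and 0.1872, adjusted p = 0.3019 and 0.1683). On 44% fat it fell in NZO/HlLtJ from 21400 ± 1770 to 17980 ± 2420 CPM (SD, n = 8 each; log2 -0.26, SE 0.073, adjusted p = 0.02793). The NZO/HlLtJ males did not overlap by diet, at 20070 to 21870 against 13480 to 19430 CPM, and the females did. The call was lost without any 1 of 7 of the 16 libraries, females on 10% fat replicates 3 and 4, females on 44% fat replicates 2 and 4, males on 10% fat replicate 2 and males on 44% fat replicates 1 and 4 (adjusted p up to 0.0757), and with NZO/HlLtJ fitted alone (adjusted p = 0.0597). It was also lost in the first run of identifiers alone, where the log2 difference was -0.28. Hepatocyte markers in NZO/HlLtJ moved with Trf, and 3 of 8 were called lower and 0 higher on 44% fat (all genes 2.14% and 3.5%). Their summed level ran from 87100 to 139700 CPM on 10% fat and from 67110 to 112000 on 44% fat. Their part was not tested.

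Fth1 (ENSMUSG00000024661, chr19:9982703-9985092, plus strand) encodes the ferritin heavy chain, the iron-oxidising subunit of the storage shell, and had the smallest adjusted p of the set for diet in NZO/HlLtJ. NZO/HlLtJ females had 773, 848, 954 and 739 CPM on 10% fat and 1042, 1086, 1139 and 1069 on 44% fat, without overlap. NZO/HlLtJ males had 966, 838, 826 and 1165 CPM on 10% fat and 1081, 1194, 1481 and 1376 on 44% fat, with overlap through 1 library of each diet. The rise was 0.41 on the log2 scale (SE 0.081, adjusted p = 0.001202) and was called without each of the 16 libraries in turn (adjusted p between 0.0001601 and 0.005343). In the first run alone, the one run in which diet was not tied to sex in NZO/HlLtJ, it was 0.36 and did not pass (adjusted p = 0.183).

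Fth1 was higher in CAST/EiJ than in C57BL/6J (log2 0.25, SE 0.058, adjusted p = 0.0002569), at 1224 ± 157 against 1020 ± 117 CPM (SD, n = 15 and 16), and lower in NZO/HlLtJ than in CAST/EiJ (log2 -0.24, adjusted p = 0.0003433). Its sex effect differed among strains (joint adjusted p = 0.01462). It was higher in females in CAST/EiJ (log2 0.24, SE 0.084, adjusted p = 0.02975), a call lost without any 1 of 5 libraries, females on 10% fat replicate 2, females on 44% fat replicate 2, males on 10% fat replicates 2 and 3 and males on 44% fat replicate 3 (adjusted p up to 0.1003), and at -0.09 in the first run alone. In NZO/HlLtJ it was at -0.22 and did not pass (adjusted p = 0.0546). Ferritin genes have processed copies elsewhere in the genome, so the assignment of Fth1 reads is uncertain to that extent.

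Slc40a1 (ENSMUSG00000025993, chr1:45908068-45926523, minus strand) encodes ferroportin, the exporter that hepcidin removes and that Kupffer cells, the macrophages of the liver, use to return iron from old red cells. It was lowest in CAST/EiJ males. CAST/EiJ males had 93.5, 76.7 and 97.2 CPM on 10% fat and 73.2, 71.9, 59.6 and 92.7 on 44% fat, and CAST/EiJ females had 190, 138.7, 143.2 and 126 on 10% fat and 186, 147, 153 and 164 on 44% fat. In NZO/HlLtJ, females had 176, 207, 172 and 187 CPM on 10% fat and 143, 136, 163 and 158 on 44% fat, and males had 121.5, 122.7, 117 and 130.6 on 10% fat and 92.2, 107, 111 and 81.8 on 44% fat. In both strains all females lay above all males.

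The sex effect on Slc40a1 was 0.94 on the log2 scale in CAST/EiJ (SE 0.098, adjusted p = 4.786e-10) and 0.60 in NZO/HlLtJ (SE 0.093, adjusted p = 5.607e-06), did not pass in C57BL/6J and differed among strains (joint adjusted p = 0.000184). C57BL/6J libraries ranged from 130.3 to 216.5 CPM with the sexes overlapping. Between strains Slc40a1 was lower than in C57BL/6J in CAST/EiJ (log2 -0.54, SE 0.067, adjusted p = 3.573e-09) and in NZO/HlLtJ (log2 -0.27, SE 0.066, adjusted p = 0.0006189). It was higher in NZO/HlLtJ than in CAST/EiJ (log2 0.26, adjusted p = 0.0006417), a call lost in the first run alone (log2 0.1052, adjusted p = 0.2846).

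Kupffer cell markers moved the same way as Slc40a1. Of 10 markers, 10 were called higher in females in CAST/EiJ, 9 in NZO/HlLtJ and 5 in C57BL/6J, and none lower. Of all genes, 14.2%, 9.32% and 8.71% were higher in females and 16.1%, 7.95% and 8.1% lower in these strains. Against C57BL/6J, 9 were lower and 0 higher in CAST/EiJ (all genes 35.3% and 32.6%). In NZO/HlLtJ 5 were lower and 1 higher (all genes 23.6% and 25.5%). Their summed level ran from 212.8 to 404.6 CPM in CAST/EiJ females and from 132.2 to 227.2 in CAST/EiJ males. In NZO/HlLtJ it ran from 330.5 to 545.6 CPM in females and from 219.4 to 329.5 in males, and in C57BL/6J from 375.2 to 512.6 and from 273.9 to 465. No marker was at 0. Their part in the Slc40a1 differences was not tested.

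On 44% fat Slc40a1 fell in NZO/HlLtJ from 154.2 ± 35.2 to 124.1 ± 30.3 CPM (SD, n = 8 each; log2 -0.32, SE 0.093, adjusted p = 0.03518). The diets did not overlap within either sex of that strain. Of 10 Kupffer markers 0 were called by diet there (all genes 3.5% higher and 2.14% lower), with 1 at an unadjusted p under 0.05. Their median log2 change was -0.081, and their part in the diet difference of Slc40a1 was not tested. The Slc40a1 call was lost without any 1 of 9 of the 16 libraries (adjusted p up to 0.0921), which were females on 10% fat replicates 2 and 4 and on 44% fat replicates 1 and 2, and males on 10% fat replicates 1, 2 and 4 and on 44% fat replicates 1 and 4. It was also lost in the first run of identifiers alone, where the log2 difference was -0.37.

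By sex, then, 2 of the 10 genes were called higher in C57BL/6J females (Hamp2 and Trf), against 8.71% of all genes higher and 8.1% lower. In CAST/EiJ 5 were called higher in females (Tfrc, Fth1, Slc40a1, Tfr2 and Trf), against 14.2% and 16.1%, and in NZO/HlLtJ 2 (Slc40a1 and Hamp2), against 9.32% and 7.95%. None was called lower in females in any strain. At an unadjusted p under 0.05 there were 4, 5 and 4 in either direction. The median log2 difference of the 10 genes was 0.345, 0.221 and 0.103, and that of all genes 0.0121, 0.0064 and 0.0151. Of the 10, 4 differed in their sex effect among strains (Hamp2, Slc40a1, Trf and Fth1), against 13.6% of all genes. Within single runs some of these calls were lost, with the same sign except for Fth1 in CAST/EiJ. Hamp2 in C57BL/6J was at log2 3.33 and 5.02 in the first and second runs (adjusted p = 0.0508 and 0.0561), and Trf in C57BL/6J was at 0.46, 0.24 and 0.47 in the 3 runs (adjusted p = 0.147, 0.636 and 0.065). Tfrc in CAST/EiJ was at 0.91 and 0.70 in the first and second runs (adjusted p = 0.185 and 0.314), Trf in CAST/EiJ at 0.56 in the first (adjusted p = 0.102) and Hamp2 in NZO/HlLtJ at 1.85 in the first (adjusted p = 0.0729). In CAST/EiJ Tfr2 was higher in females by log2 0.21 (adjusted p = 0.02356) and lost the call without any 1 of 4 libraries, females on 10% fat replicate 2, females on 44% fat replicate 2, males on 10% fat replicate 2 and males on 44% fat replicate 3 (adjusted p up to 0.0876).

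**Figure D3:**
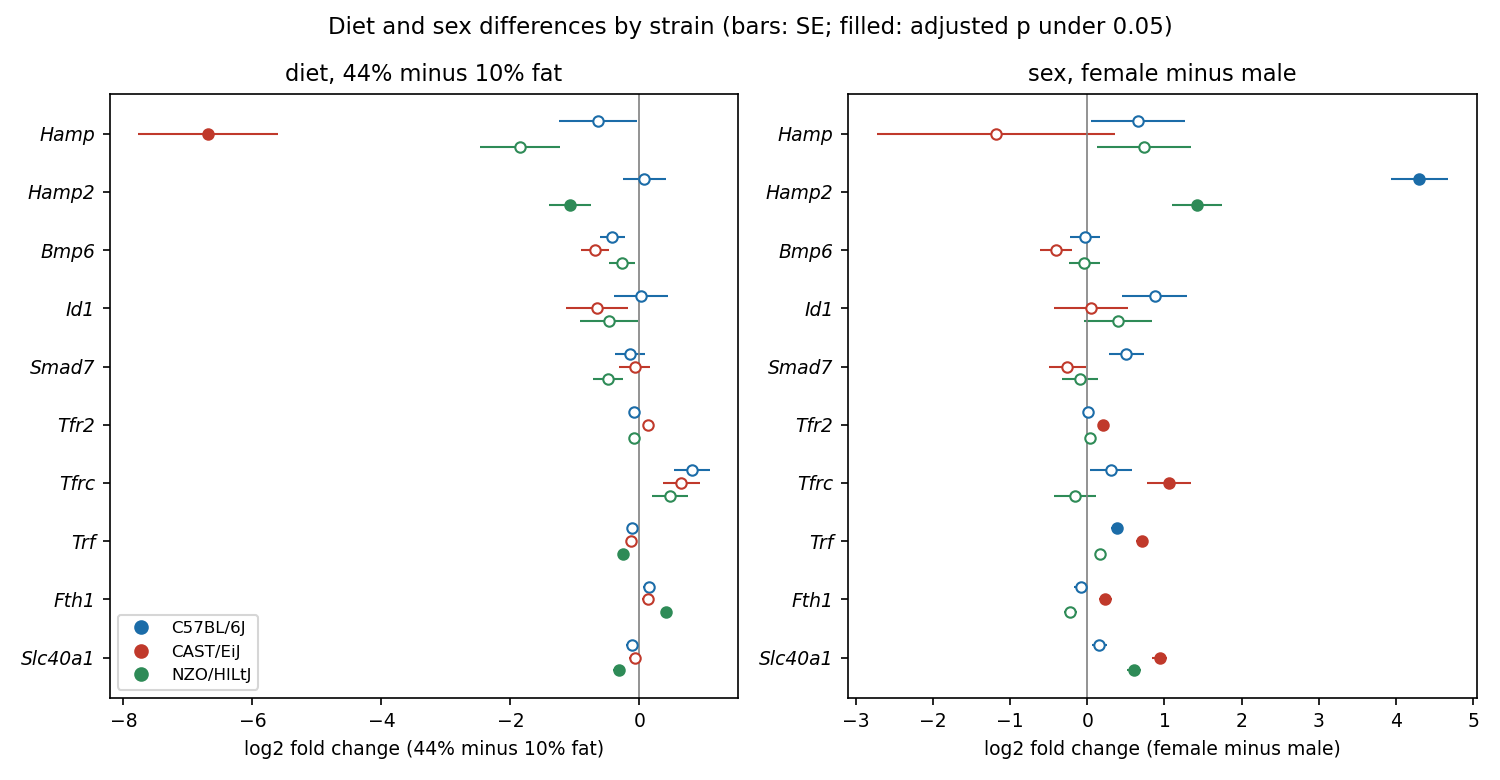
Log2 fold changes with standard errors of the 10 genes for diet (44% minus 10% fat) and sex (female minus male) in each strain, with filled points for an adjusted p under 0.05. Hamp2 in CAST/EiJ is left out because its libraries were at or near 0. The largest called diet effect is Hamp in CAST/EiJ at -6.68, and the largest called sex effect is Hamp2 in C57BL/6J at 4.303.

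Within groups, libraries differed in ways that the genes shared. For 12 pairs of genes, each library's deviation from its group mean of log2 CPM (with a prior count of 2) was correlated over the 47 libraries, with 100000 two-sided permutations and p-values adjusted over the 12 pairs, and 5 pairs passed. The permutations mixed libraries of all strains and runs, although the spread of Hamp differed between strains. Run was not removed, so these p-values are approximate and a shift shared by a run enters them. Id1 and Smad7, both targets of BMP signalling, moved together most closely, with Pearson's r = 0.805 (permutation p = 1e-05, the smallest the permutations can give, adjusted p = 0.00012) and Spearman's rho = 0.739. Without the 2 libraries farthest from the median of Id1, r was 0.761. Within the 3 runs r was 0.862, 0.75 and 0.831. By strain r was 0.921 in C57BL/6J, 0.473 in CAST/EiJ and 0.81 in NZO/HlLtJ.

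Bmp6 and Hamp, ligand and target, had r = 0.507 (permutation adjusted p = 0.00148) and rho = 0.405 (permutation adjusted p = 0.02), or r = 0.371 without the 2 farthest libraries. Within the runs r was 0.456, 0.601 and 0.161, and of the runs alone only the second passed (permutation adjusted p = 0.153, 0.0418 and 0.879). By strain r was 0.242 in C57BL/6J, 0.626 in CAST/EiJ and 0.406 in NZO/HlLtJ. Bmp6 in CAST/EiJ was at 1.98 ± 0.859, 0.990 ± 0.255 and 1.83 ± 0.519 CPM in the 3 runs (SD, n = 4, 6 and 5). Hamp in that strain was also lowest in the second run.

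Tfrc and Hamp had r = -0.512 (permutation adjusted p = 0.00148) and rho = -0.384 (permutation adjusted p = 0.0238). Without the 2 farthest libraries r was -0.288 and did not pass (permutation adjusted p = 0.0973), so the relation rests on those libraries. By strain r was 0.221 in C57BL/6J, -0.671 in CAST/EiJ and -0.449 in NZO/HlLtJ, and by run -0.839, -0.476 and -0.171, of which the first passed alone. Hamp deviations were much wider in CAST/EiJ than in the other strains, so CAST/EiJ weighs most in each pair with Hamp.

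Tfrc and Slc40a1 had r = -0.487 (permutation adjusted p = 0.00159) and rho = -0.447 (permutation adjusted p = 0.0101), with -0.365 without the 2 farthest and -0.693, -0.245 and -0.505 by run, of which the first passed alone. Slc40a1 and Hamp had r = 0.361 (permutation adjusted p = 0.0303) and rho = 0.348 (permutation adjusted p = 0.0337), and the call was lost without the 2 farthest libraries (r = 0.344, permutation adjusted p = 0.0520) and within every run alone (r = 0.553, 0.17 and 0.203, permutation adjusted p = 0.0837, 0.543 and 0.879). For Slc40a1 and Hamp, r was -0.214 in C57BL/6J, 0.544 in CAST/EiJ and 0.44 in NZO/HlLtJ. The remaining 7 pairs did not pass on Pearson's r over all 47 libraries. Among them, Hamp with Smad7 had r = 0.288 (permutation adjusted p = 0.0866) and Hamp with Hamp2 also r = 0.288 (permutation adjusted p = 0.0866). Both passed on Spearman's rho, at 0.331 (permutation adjusted p = 0.0406) and 0.359 (permutation adjusted p = 0.0322). Hamp with Id1 (r = 0.213, rho = 0.305, permutation adjusted p = 0.199 and 0.0557) and with Tfr2 (r = 0.069) passed on neither.

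**Figure D4:**
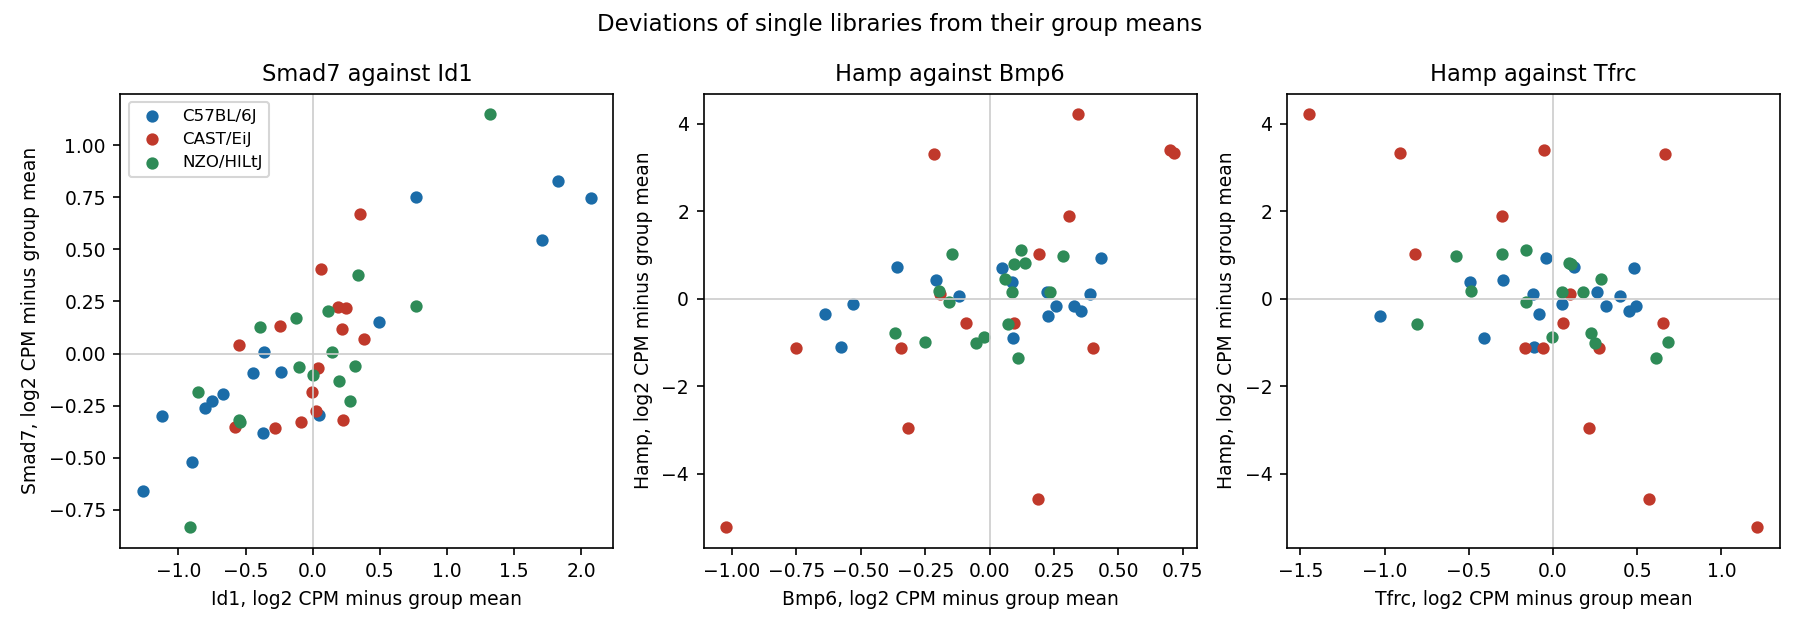
Deviations from group means of log2 CPM for Smad7 against Id1, Hamp against Bmp6 and Hamp against Tfrc, 1 point per library, coloured by strain. In the first panel r was 0.805 over all 47 libraries, and lower in CAST/EiJ (0.473) than in C57BL/6J (0.921) and NZO/HlLtJ (0.81). In the other panels the widest Hamp deviations belong to CAST/EiJ (r = 0.507 and -0.512 over all 47 libraries).

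The genes most like the members over all 47 libraries were taken by Pearson's r of log2 CPM, as a description that mostly reflects strain. For Hamp they were Pla2r1 (0.906), Dsg2 (0.902), Folr2 (0.901) and Svip (0.899), for Tfrc Polr3b (0.872), Bmi1 (0.83), Bckdhb (0.823) and Hapln1 (0.82), and for Id1 Id3 (0.81), Smad7 (0.758), Fam83g (0.743) and Pld2 (0.727). Id3 belongs to the family of Id1.

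The rest of the pathway was read from 4 lists, whose shares of called genes should be read against those of all genes. For diet in NZO/HlLtJ the shares of all genes were 3.5% higher and 2.14% lower, and they were smaller in the other strains. Of 25 other tested genes of BMP and SMAD signalling to hepcidin, 6 were higher and 6 lower in CAST/EiJ than in C57BL/6J, against 32.6% of all genes higher and 35.3% lower. In NZO/HlLtJ 4 were higher and 12 lower, against 25.5% and 23.6% of all genes. Smad9, a BMP-activated SMAD, was lower in both (log2 -2.14 and -2.19, SE 0.23 and 0.22). Bmp4, another BMP ligand, was higher in CAST/EiJ (log2 1.53, SE 0.11) and lower in NZO/HlLtJ (log2 -0.69, SE 0.11). Tmprss6, the protease that cleaves the co-receptor hemojuvelin and so restrains hepcidin, was higher in CAST/EiJ (log2 0.43, SE 0.044, adjusted p = 1.713e-11). Atoh8, a transcription factor downstream of BMP6, was lower in NZO/HlLtJ (log2 -1.34, SE 0.14). The median log2 differences of the list were -0.054 and -0.119, against -0.0224 and -0.0016 for all genes.

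On 44% fat 0 of these 25 genes were called in C57BL/6J and CAST/EiJ, where 7 and 5 had an unadjusted p under 0.05. In NZO/HlLtJ Inhbb, which encodes the activin B subunit, rose (log2 1.18, SE 0.30, adjusted p = 0.01403) while Bmp4 (log2 -0.58, adjusted p = 0.02671) and Smad9 (log2 -1.03, adjusted p = 0.04602) fell. By sex, 2 of 25 were lower in C57BL/6J females and 0 higher, 5 lower and 2 higher in CAST/EiJ, and 3 lower and 1 higher in NZO/HlLtJ. Of all genes, 8.1%, 16.1% and 7.95% were lower in females and 8.71%, 14.2% and 9.32% higher. Bmp7 was lower in females of all 3 strains, at log2 -1.06, -1.07 and -0.73 (SE 0.20, 0.19 and 0.19).

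Of 17 genes of the IL-6 and acute phase arm, 4 were higher and 8 lower in CAST/EiJ than in C57BL/6J (all genes 32.6% and 35.3%), and 3 higher and 2 lower in NZO/HlLtJ (all genes 25.5% and 23.6%). Il6ra, the IL-6 receptor, was higher in CAST/EiJ (log2 0.93, SE 0.15), and the acute phase genes Lcn2 (log2 -2.68, SE 0.32), Saa1 (log2 -2.31, SE 0.40) and Orm1 (log2 -1.32, SE 0.13) were lower. In NZO/HlLtJ, Saa1 and Saa2 were higher than in C57BL/6J (log2 1.05 and 1.17, SE 0.35 and 0.34). On 44% fat 4 of the 17 fell in NZO/HlLtJ and 0 rose (all genes 2.14% and 3.5%). These were the fibrinogen chains Fga, Fgb and Fgg, with log2 changes of -0.71, -0.68 and -0.64 (SE 0.10 each), and haptoglobin, Hp, with -0.50 (SE 0.15, adjusted p = 0.04598). In C57BL/6J and CAST/EiJ 0 were called by diet, with 3 at an unadjusted p under 0.05 in each.

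Of 21 further genes of iron uptake, storage and export, 3 were higher and 8 lower in CAST/EiJ than in C57BL/6J (all genes 32.6% and 35.3%), and 7 higher and 4 lower in NZO/HlLtJ (all genes 25.5% and 23.6%). The metalloreductases Steap2 (log2 -5.77, SE 0.14, adjusted p = 9.088e-32) and Steap3 (log2 -2.80, SE 0.084, adjusted p = 8.811e-29), of a family that reduces iron for uptake, were lower in CAST/EiJ. Fbxl5, which marks IRP2 for degradation when iron is present, was also lower there (log2 -0.41, SE 0.048). Scara5, a receptor for ferritin, was lower in females of all 3 strains, at log2 -6.66, -7.09 and -4.82 (SE 0.65, 0.59 and 0.46), and higher in NZO/HlLtJ than in C57BL/6J (log2 2.92, SE 0.42). On 44% fat in NZO/HlLtJ, Cp, the ferroxidase ceruloplasmin, fell (log2 -0.29, SE 0.077, adjusted p = 0.01986) and Aco1, which encodes IRP1, rose (log2 0.20, SE 0.059, adjusted p = 0.0313). In C57BL/6J and CAST/EiJ 0 of the 21 were called by diet, with 2 at an unadjusted p under 0.05 in each.

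Of 23 genes of heme and mitochondrial iron, 9 were higher and 7 lower in CAST/EiJ than in C57BL/6J (all genes 32.6% and 35.3%), and 7 higher and 6 lower in NZO/HlLtJ (all genes 25.5% and 23.6%). Fech, the enzyme that inserts iron into heme, was lower in CAST/EiJ (log2 -0.39, SE 0.031). Alad, the enzyme of an early step of heme synthesis, was higher in NZO/HlLtJ than in C57BL/6J (log2 1.01, SE 0.057). On 44% fat Glrx5, a glutaredoxin of iron-sulfur assembly, rose in NZO/HlLtJ (log2 0.29, SE 0.083, adjusted p = 0.02645). It was the only one of the 23 called by diet in any strain, with 3 in C57BL/6J, 3 in CAST/EiJ and 6 in NZO/HlLtJ at an unadjusted p under 0.05.

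Across the libraries, totals ran from 21.6 M to 47.8 M counts. The tissue label was checked on the 8 hepatocyte markers, none of which was at 0, with a summed level of 49550 to 139700 CPM over all libraries. Pancreatic transcript, read from Cpa1 at 20 CPM or more, was present in 5 libraries, C57BL/6J females on 44% fat replicates 1 and 2, C57BL/6J males on 10% fat replicates 2 and 3 and the CAST/EiJ female on 44% fat replicate 2. Without them, the calls for the sum of Hamp and Hamp2 in NZO/HlLtJ against C57BL/6J (adjusted p = 0.0646) and for Fth1 by sex in CAST/EiJ (adjusted p = 0.0629) were lost.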

How the data were processed

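Per the labels, 47 liver libraries were prepared from polyadenylated RNA (KAPA mRNA HyperPrep, ERCC RNA added) and sequenced as 100 bp pairs on an Illumina NovaSeq instrument. The authors deposited expected counts per gene, of which 20.3% were not whole (tolerance 1e-06). A second deposited table of variance-stabilized values was not used here. Per the submitters' processing notes the build was GRCm38 and DESeq2 was used. Aligner, counter, strandedness and annotation version are not stated in any source used here.

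Expected counts were rounded and fitted in R 4.3.3 with edgeR 4.0.16, with filterByExpr over the 12 groups, TMM factors and robust quasi-likelihood estimation on 12 group means, leaving 35 residual degrees of freedom. All 47 libraries entered every comparison. Diet is 44% minus 10% fat averaged over sexes, sex is female minus male averaged over diets, and strain is averaged over both. P-values were Benjamini-Hochberg adjusted over all genes, and a standard error is the log2 fold change divided by the square root of F. The procedure was tested on simulated data. Precision follows depth: at 21.6 M to 47.8 M counts, 3 reads are the floor used for a group at 0, and intervals cover counting error only.

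Alternatives were DESeq2 1.42.0, RLE factors, no filter, the run of library identifiers as a covariate, each run or strain alone, dropping 5 libraries with Cpa1 at 20 CPM or above, leaving out each library in turn, and summing Hamp and Hamp2. Relations were computed with scipy 1.17.1. Named were all 10 genes, up to 4 called genes of each list with the smallest p in a comparison, and the 4 genes most correlated with Hamp, Id1 and Tfrc. A gene that this rule would name is not reported here. The genes, lists and tests were chosen with earlier results of these data known. Promoters came from RefSeq and transcripts from GENCODE M21. Marker lists covered hepatocytes, sinusoidal endothelial, Kupffer, stellate, erythroid and pancreatic acinar cells. Of 8 stellate markers 4 were called between CAST/EiJ and C57BL/6J and 0 by diet, and of 9 tested erythroid markers 2 and 1, the latter in NZO/HlLtJ. Of 6 tested acinar markers, 1 and 0 were called. Of all genes, 32.6% were higher and 35.3% lower between CAST/EiJ and C57BL/6J. By diet in NZO/HlLtJ, 3.5% of all genes were higher and 2.14% lower.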

Additional observations from a re-analysis of the deposited data

Results flagged for a closer look

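In 119 sets of 4 libraries examined, 11 had a highest or lowest library that stood apart from the other 3 by a gap test. The chance rate of that test, about 1 in 20, holds for independent, normally distributed values. Some sets here were at or near 0 CPM, and the sum of Hamp and Hamp2 repeats values of its parts. The 11 are therefore a description and are not compared with that rate. For Hamp in CAST/EiJ males on 44% fat, replicate 4 had 1.124 CPM while the others were at 0, and the sum with Hamp2 was the same 1.124 CPM. For Hamp2 in CAST/EiJ females on 10% fat, replicate 1 had 0.0966 CPM and the others 0.

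Replicate 1 of several C57BL/6J groups was high for the BMP target genes, with Id1 at 30.79 CPM in females and 11.86 CPM in males on 44% fat, and Smad7 at 13.99 CPM in males on 10% fat and 9.482 CPM in males on 44% fat. All of these belong to the first run of library identifiers. Id1 was low at 2.112 CPM in the NZO/HlLtJ female on 10% fat replicate 4.

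Slc40a1 was high at 216.5 CPM in the C57BL/6J male on 10% fat replicate 2, a library with pancreatic transcript. Trf was high at 28070 CPM in the CAST/EiJ female on 44% fat replicate 2, another such library, and Fth1 was low at 856.6 CPM in the C57BL/6J female on 10% fat replicate 1.

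The sex effect differed among the strains for 4 genes by edgeR's joint test, with adjusted p of 0.0002575 for Hamp2, 0.000184 for Slc40a1, 0.001031 for Trf and 0.01462 for Fth1. For Hamp2, CAST/EiJ had next to no reads in either sex, and its sum with Hamp did not pass the joint test (adjusted p = 0.4268).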

How the results depend on the processing

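Of 2304 refits of single-gene results without 1 library, 2237 kept direction and call, 52 lost a call, 15 gained one and 0 changed sign. Of 529 other refits the numbers were 477, 40, 7 and 5. Both totals include joint tests, which have no sign and could not change it. They also include results that were not called, for which keeping the call means staying not called. The 5 changes of sign were Hamp by diet in C57BL/6J in the second identifier run alone (0.2116), the sum of Hamp and Hamp2 there (0.1541), Hamp in NZO/HlLtJ minus C57BL/6J when summed with Hamp2 (1.2844), Tfrc in NZO/HlLtJ minus CAST/EiJ in the first run alone (0.15) and Fth1 by sex in CAST/EiJ in the first run alone (-0.0869). A run alone holds 15 or 16 libraries, so fewer samples enter those fits. For the other changes the cause was not tested.

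The number of the 10 genes called by diet across strains was 0, with 0 to 1 without 1 library and 1 with DESeq2. By diet in CAST/EiJ it was 1, with 1 to 2 without 1 library (2 without the male on 10% fat replicate 2) and 0 with the strain fitted alone. By diet in NZO/HlLtJ it was 4, with 1 to 4 without 1 library. By sex it was 2 in C57BL/6J (2 to 4 without 1 library) and 5 in CAST/EiJ (3 to 5). Of the 12 relations 5 passed, against 3, 3 and 1 within runs 1, 2 and 3. Those of run 2 include Tfrc with Fth1, which is not among the 5. Diet in NZO/HlLtJ could not be fitted within run 2 or run 3, where it is tied to sex. No paired analysis was possible because the labels carry no replicate numbers. Depth limits what can be said of Hamp2 in CAST/EiJ to the bounds given.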
